A study of Mus musculus with 2 samples.

Results

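The genes described here encode 10 neuropeptides that are made in islet cells, in nerve fibres of the pancreas and gut, or in both: Npy, Cartpt, Cck, Gast, Vip, Gal, Nts, Tac1, Grp and Adcyap1. They were chosen by name. A probe was taken for a gene when its RefSeq accession, or the symbol in its description, mapped to that gene. This gave 11 probes for the 10 genes, out of 16805 genes with a probe on the array, and all 10 were among the 16551 detected genes, whose signal stood well above background for 1 genotype or both on each of the arrays. The study compared whole pancreas of newborn mice homozygous for a Glis3 allele, written Glis3zf/zf and called Glis3KO in the labels, with wild-type (WT) pancreas, both at postnatal day 3. Glis3 encodes a DNA-binding factor of the Krüppel-like zinc finger family, and the study asked what it does in the development of beta cells, the insulin cells of the islets. The labels do not spell out the allele, and give no strain or sex. The RNA of 2 pups made up the pool of each genotype, and the same pair of pools was hybridised to 2 two-colour arrays with the dyes exchanged, so each genotype has 1 sample. No test between genotypes was possible, no p-value was computed, and the spread given is that between the arrays, not between animals.

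Neuropeptides are cut out of longer precursor proteins by prohormone convertases inside dense-core granules, and many are then amidated at their end. Released peptides act on receptors coupled to G proteins. In the pancreas, autonomic and sensory fibres carry such peptides to islets, acini, ducts and vessels, where they adjust hormone release, enzyme and bicarbonate secretion and blood flow. Several of the same genes are also active in endocrine cells of developing islets or of the gut.

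Of the 10 genes, 0 passed a rule of size under which the mean ratio had to reach 2-fold and both arrays 1.5-fold in the same direction. In the background, 0.23% of the detected genes were called higher and 0.151% lower in the mutant pool by that rule. Cck, the cholecystokinin gene, came nearest, at 1.74-fold of wild type by the probe of its RefSeq transcript, while another probe described as cholecystokinin mRNA stood at 0.10 on the log2 scale. Vip and Grp, which encode vasoactive intestinal polypeptide and gastrin releasing peptide, were each 1.24-fold lower. The remaining 7 genes lay within 0.3 log2 of 0.

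Promoter windows of 9 of the 10 genes were read from the RefSeq table of build GRCm38.p6, and Grp was left out of this search. The 250 bases before the start are shown for the genes of these 9 with the highest and the lowest mean ratio. They are Cck at chr9:121495695-121495944 on the minus strand and Vip at chr10:5638968-5639217 on the plus strand. Each reads 5′ to 3′ toward the start. The capitals mark TGACG, the core of the cyclic AMP response element bound by CREB family factors, on either strand, so that CGTCA is the same core on the other strand.
Cck: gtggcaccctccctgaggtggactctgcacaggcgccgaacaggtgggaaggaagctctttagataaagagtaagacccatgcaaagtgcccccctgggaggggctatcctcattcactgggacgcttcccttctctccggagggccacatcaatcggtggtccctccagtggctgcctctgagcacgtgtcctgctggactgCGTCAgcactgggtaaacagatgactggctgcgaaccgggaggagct
Vip: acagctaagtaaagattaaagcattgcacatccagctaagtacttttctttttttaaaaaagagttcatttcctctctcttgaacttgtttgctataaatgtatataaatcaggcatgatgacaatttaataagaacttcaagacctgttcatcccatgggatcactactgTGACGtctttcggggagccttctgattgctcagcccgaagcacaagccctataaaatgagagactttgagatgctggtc

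The core TGACG was found in this window of 6 of the 9 genes, and in 17.8% of 32851 RefSeq promoter windows of the same length. The other 4 genes that hold it are shown by 30 bases around each core, to compare what surrounds it. The Cartpt window is chr13:99900778-99900807 on the minus strand and holds the whole palindrome TGACGTCA, which overlaps the core on both strands. That of Adcyap1 is chr17:93198914-93198943 on the plus strand, by the first of its 2 listed starts. That of Nts is chr10:102490567-102490596 on the minus strand. Tac1 holds the core at chr6:7554852-7554881 and at chr6:7555006-7555035 on the plus strand.
Cartpt: cccggcgggcatTGACGTCAaacggcagcg
Adcyap1: ggactaggatgcTGACGtcttttactgata
Nts: attagggaagatCGTCActttccatcaagg
Tac1 distal: tccctaaaattgCGTCAtttcgaacacaat
Tac1 proximal: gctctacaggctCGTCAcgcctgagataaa

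The first base of the core lay 47 bases before the start in Cck, 79 in Vip, 91 in Adcyap1, 112 in Cartpt and 166 in Nts. In Tac1 it lay 197 and 43 bases before the start. The palindrome TGACGTCA was found in 1 of the 9 genes and in 1.55% of all windows. The run TGGGGGG, part of the GC-rich sites bound by Gli-similar factors, was found in 0 of the 9, against 7.67% of all windows, both strands being searched. TATAAA was found in 2 of the 9, Gast and Vip, by the first listed start, and in 3 with the second start of Adcyap1, against 12.4% of all windows. These matches describe letters in a window. The genes with the core stood on both sides of 0, with Cck the highest and Vip among the lowest of the 10.

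Raw spot signal, in scanner units before any normalisation, had a median over all genes of 208.2 and 209.7 in the mutant channels and of 265 (Cy3) and 207 (Cy5) in the wild-type channels. By this median the wild-type Cy3 channel was the brightest, though not for every gene, and raw readings of different channels are set side by side before the loess normalisation of the ratios. The local background lay between 46.5 and 50, and the 95th percentile of negative control spots between 60.8 and 76.2. All 10 genes were above that percentile in all 4 channels, and 0 were saturated. The tissue matched its label in that 7 of the 9 acinar genes with a probe were saturated in all 4 channels. The Glis3 probe does not check the genotype, because the sources used here do not say where it lies relative to the mutated part.

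**Figure D1:**
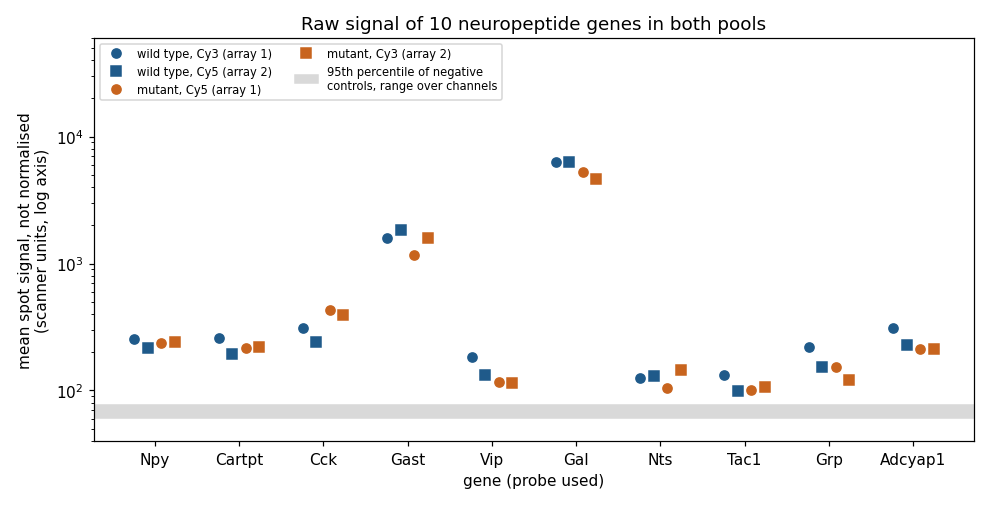
Mean spot signal of the probe used for each of the 10 genes, on a log axis in scanner units, in the wild-type pool (blue) and the mutant pool (orange), with circles for the first array and squares for the second. The grey band runs from 60.8 to 76.2, the 95th percentiles of negative control spots, and every point lies above it; for Cck alone both mutant points lie above both wild-type points.

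Cholecystokinin and gastrin form a family that shares an amidated active end. Cholecystokinin from the duodenum drives acinar enzyme release and acts as a transmitter in neurons, and gastrin, a hormone of the stomach, is also made for a short time in fetal and newborn islets. The Cck probe (NM_031161, chromosome 9, 121506354 to 121506413 in the coordinates of the files, whose build the sources used here do not name) read 432.8 in Cy5 and 391.2 in Cy3 for the mutant pool. For the wild-type pool it read 308.4 in Cy3 and 238.7 in Cy5. Both mutant readings were above both wild-type readings, whichever dye was used.

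After normalisation the log2 ratio of Cck, mutant over wild type, was 0.81 where Cy5 marked the mutant and 0.78 where Cy3 did. The arrays lay 0.013 log2 on each side of their mean, where the technical SD of a mean ratio among genes of like brightness was 0.074. Only 0.326% of the detected genes had a higher mean ratio. Under a looser rule, added after the values were seen, of at least 1.5-fold on each array, Cck was the 1 gene of the 10 that was higher and 0 of the 10 were lower. By that rule 0.453% of all detected genes were higher and 0.411% were lower. The looser count for Cck was the same with the scanner software's own ratios, with no background offset and on either array alone.

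The other probe for cholecystokinin did not show this difference. It is described as a full-length cholecystokinin clone (BC028487), falls outside the rule because its description holds no symbol, and was added after its values were seen. The files place it 3483 bases from the first on the same chromosome and strand, a distance shorter than the 5871 bases that RefSeq gives for the gene. Its raw signal was 656.5 and 537.4 in the mutant pool and 714.1 and 564.8 in the wild-type pool. Its log2 ratios were 0.175 and 0.03, against 0.81 and 0.78 for the RefSeq probe. The mean over both probes was 0.45 log2, under the 1.5-fold of the looser rule. The clone probe was the brighter one in every channel. A gene with several probes was read from its brightest unsaturated one. With a symbol in the clone's description, Cck would thus have been read at 0.10 log2. The probes disagree on the size of the difference, and the sources used here do not say which part of the transcript each one reads.

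Markers of the intestine, where cholecystokinin cells are abundant, were read beside Cck. Of 11 listed intestine genes, 9 had a probe and 6 were detected, and 0 of these 6 passed the rule of size. Their median log2 ratio was -0.02, from -0.18 for Vil1, the villin gene, to 0.16 for Fabp2, a fatty acid binding protein gene whose other probe gave -0.16. Their summed raw signal was 1727 and 2127.5 in the mutant pool and 2256.4 and 2086.9 in the wild-type pool. The defining markers Cdx2, Fabp1 and Cdh17 were not well above background in either genotype. The detected genes were few, and Apoa4, an apolipoprotein gene picked after its values were seen, differed in sign between the arrays, at -0.50 and 0.23. The mutant pool did hold more skeletal muscle RNA by its markers. Of 10 listed muscle genes 9 were detected, and all 9 were called higher, with a summed raw signal of 22380 and 20547 against 2602 and 2448. The other detected probe of Tnnt3 gave 2.61 log2, and that of Myh8 gave 0.06, against 3.29 by the Myh8 probe used. What part intestine or muscle RNA has in the Cck ratio was not tested.

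Gast (NM_010257, chromosome 11, 100157580 to 100157639) read 1164.9 and 1579 in the mutant pool and 1595.1 and 1850.6 in the wild-type pool. Its log2 ratios were -0.18 and -0.05, with a mean of -0.11. That is 1.38 times the technical SD of 0.082 at its brightness, and 17.4% of genes had a lower ratio. Gastrin thus had a small ratio, with the opposite sign to Cck.

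**Figure D2:**
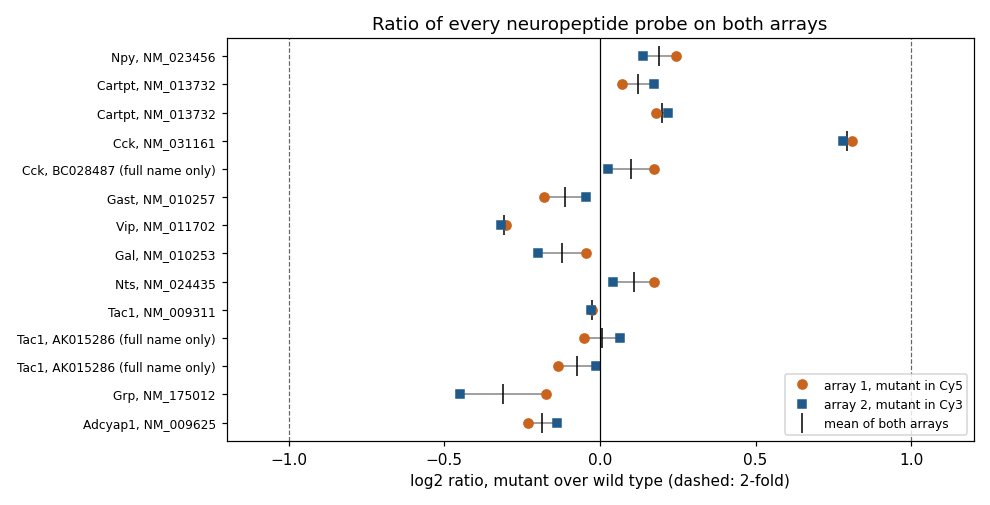
Log2 ratio of mutant over wild type for each probe of the 10 genes, with the array that carried the mutant in Cy5 as an orange circle, the array that carried it in Cy3 as a blue square and their mean as a bar; dashed lines mark 2-fold. The RefSeq probe of Cck lies at 0.81 and 0.78, the clone probe of Cck at 0.175 and 0.03, and no probe reaches 2-fold.

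Vasoactive intestinal polypeptide and the pituitary adenylate cyclase activating polypeptide encoded by Adcyap1 are related peptides of parasympathetic nerves. Both raise cyclic AMP and stimulate insulin release and the watery secretion of ducts. Vip (NM_011702, chromosome 10, 4864254 to 4864313) read 116.6 and 113.9 in the mutant pool and 183.6 and 131.1 in the wild-type pool. The files place this probe on the minus strand, where RefSeq GRCm38.p6 has the gene on the plus strand. For the other 8 genes of the promoter search the strands are the same. The probe was taken as Vip by its accession, and whether it reads the Vip mRNA was not tested. Both mutant readings were below both wild-type readings. Its log2 ratios were -0.30 and -0.32, and the mean of -0.31 was 4.34 times the technical SD of 0.071. It had a lower ratio than 97.1% of the detected genes.

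The signal of Vip was dim, and the offset of 50 added before the logarithm draws dim ratios toward 0. With an offset of 0 the mean ratio of Vip was -0.52, and by the scanner software it was -0.59, still short of 2-fold. Adcyap1 (NM_009625, chromosome 17, 91187441 to 91187500) read 210.3 and 212.4 in the mutant pool and 310.6 and 229.1 in the wild-type pool. Its log2 ratios of -0.23 and -0.14 gave a mean of -0.19, and 8.99% of genes were lower. Both peptides of this family were thus below 0 on both arrays, by less than 2-fold.

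Grp encodes the gastrin releasing peptide of vagal nerve endings, which acts on acinar and islet cells. Its probe (NM_175012) read 152.4 and 120.5 in the mutant pool and 219.4 and 151.8 in the wild-type pool, so the raw readings overlapped slightly. The log2 ratio was -0.175 where Cy5 marked the mutant and -0.45 where Cy3 did, a mean of -0.31. The arrays lay 0.137 log2 on each side of that mean, the widest gap among the 10 genes. By the scanner software the mean was -0.52. The direction was the same on both arrays, which agreed less closely on the size than they did for Vip.

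Gal encodes galanin, an inhibitor of insulin release carried by sympathetic nerves of the islet. The Gal probe (NM_010253, chromosome 19, 3199838 to 3199897) was far above background, at 5284.1 and 4612.3 in the mutant pool and 6282.7 and 6271.5 in the wild-type pool. Its log2 ratios were -0.05 and -0.20, and the mean of -0.12 was 1.18 times the technical SD of 0.104. Both raw mutant readings were below both wild-type readings, yet the difference was close to the noise of the arrays at that brightness.

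Tac1, the precursor gene of substance P and neurokinin A in sensory fibres, showed the smallest difference. Its probe (NM_009311, chromosome 6, 7530480 to 7531894, a span that crosses a gap such as an intron) read 99.9 and 107 in the mutant pool and 131.4 and 98.5 in the wild-type pool. Both log2 ratios were -0.03. A pair of further probes, described as a tachykinin 1 clone (AK015286) with no symbol and added after their values were seen, had mean ratios of 0.01 and -0.07. All 3 probes stood within 0.1 of 0. Nts, which encodes neurotensin, a peptide of gut endocrine cells and neurons, had log2 ratios of 0.17 and 0.04. Its probe (NM_024435, chromosome 10, 102396036 to 102396095) read 104.4 and 145.8 in the mutant pool and 126.2 and 130.6 in the wild-type pool, and these readings overlapped.

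Npy and Cartpt encode neuropeptide Y, of sympathetic fibres and immature beta cells, and the cocaine and amphetamine regulated transcript peptide, found in islet cells and in nerve fibres. Npy (NM_023456, chromosome 6, 49964549 to 49968311, again spanning a gap) read 236 and 239.7 in the mutant pool and 254 and 217 in the wild-type pool. Its log2 ratios were 0.24 and 0.14, with a mean of 0.19 that was exceeded by 4.83% of genes. Cartpt was read by 2 probes of NM_013732 on chromosome 13, whose positions (96090930 to 96091919 and 96090920 to 96091909) are offset by 10 bases, so they are not independent readings. The brighter one read 215.7 and 220.5 in the mutant pool and 259.5 and 192.4 in the wild-type pool. It had log2 ratios of 0.07 and 0.17, and the other 0.18 and 0.22. Npy and Cartpt were both slightly above 0 on both arrays, while their raw readings overlapped between the genotypes.

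All 10 genes kept their sign between the arrays: 6 were below 0 on both and 4 were above 0 on both. Among all detected genes 30.5% were below 0 on both arrays and 32.4% above 0 on both. The median log2 ratio of the 10 was -0.07, against 0.004 for all detected genes, and the median size of the ratio without its sign was 0.16 against 0.07. Of the 10 genes, 7 lay within 0.3 log2 of 0, as did 94.7% of all detected genes, and 5 of the 10 were more than 2 technical SDs from 0, against 18.3% of all detected genes. In whole tissue, fewer cells of a type and less RNA per cell cannot be told apart.

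**Figure D3:**
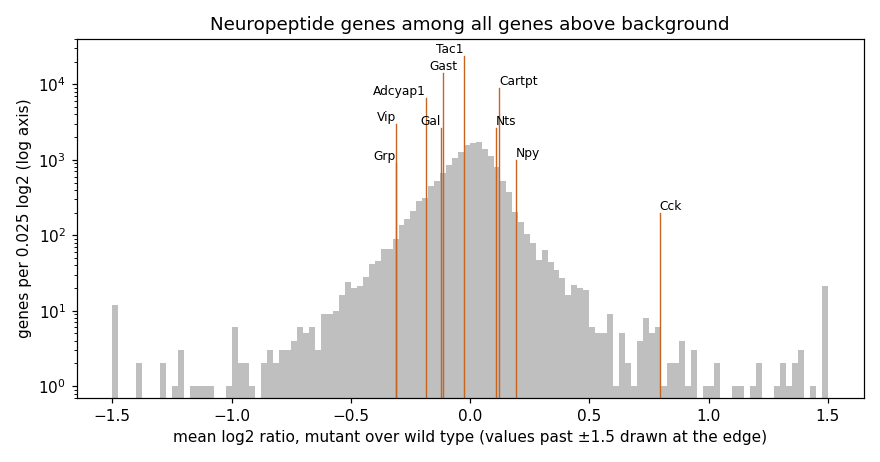
Mean log2 ratio of mutant over wild type for the 16551 detected genes (grey, number of genes on a log axis), with an orange line for each of the 10 neuropeptide genes. Cck stands in the upper tail at 0.80, Vip and Grp together at -0.31, and the other 7 lie within the central mass.

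The islet hormone genes gave a scale for these differences in the same pools. Of 8 such genes, 7 were called lower and 0 higher, with a median log2 ratio of -2.06. With the background offset kept, all 10 neuropeptide genes stood above the hormone with the smallest difference, Iapp, the amyloid polypeptide gene, at -0.51. With no offset Vip had -0.52 and Grp -0.49, and by the scanner software they had -0.59 and -0.52. The others of the 10 stayed above -0.51 under every alternative. Whether Vip and Grp stand above Iapp when all are read without the offset was not tested. The difference between these lists is a description of 1 pair of pools and was not tested.

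A wider list of 41 other neuropeptide and peptide hormone genes, which shares 6 genes with the islet hormones, had 36 detected members. Of these, 5 were called lower and 0 higher, and all 5 are hormones of islet cells: Ppy (4.45-fold lower), Ghrl (4.34-fold), Sst (4.0-fold), Gcg (2.31-fold) and Pyy (2.02-fold, with -0.72 log2 by its other probe). The median of the list was 0.006. Outside these 5, and chosen after the values were seen, Scg2, the gene of the granule protein and peptide precursor secretogranin II, had a ratio of -0.715, and Penk, the enkephalin precursor gene, had 0.35 (0.435 by its other probe). Most peptide genes outside the islet hormones thus had small ratios in these pools.

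Of 20 listed receptor genes of the 10 peptides 19 were detected, 0 passed the rule of size, and 18 were within 0.3 log2 of 0, with a median of 0.06. Among all detected genes 94.7% lay within 0.3, so these counts do not set the receptors apart. The largest ratio was that of Sort1, the sorting receptor that also binds neurotensin, at -0.38. Its other 3 probes gave 0.03, 0.05 and -0.08, so this value rests on 1 probe of 4. Adcyap1r1, the receptor of the Adcyap1 peptide, stood at 0.16 (0.01 by its other probe), Npy4r, a receptor of pancreatic polypeptide, at 0.13 and Galr3, a galanin receptor, at 0.12.

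Receptors of Cck, Vip and Grp were set beside their ligands, and picked for that reason after the values were seen. These 3 ligands have the largest ratios of the 10, so smaller ratios for their receptors were likely from the choice. Not every pair of the list went this way: Tacr1, a tachykinin receptor, had 0.09 (0.06 by its other probe), where Tac1 had -0.03. Cckar, the acinar cholecystokinin receptor, had 0.11 and Cckbr, the shared receptor of gastrin and cholecystokinin, 0.075, where Cck had 0.80. Vipr1 had 0.01 and Vipr2 0.09, where Vip had -0.31. Grpr had 0.10, where Grp had -0.31. No receptor of Cck, Vip or Grp was further than 0.11 log2 from 0.

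Genes that cut and finish the precursors lay mostly below 0. Of 11 listed genes 8 were detected, 7 were below 0 on both arrays, and 1, Pcsk2, was called lower. Pcsk2 encodes a prohormone convertase and had a ratio of -1.08, while its other probe gave -0.26, and with the median over probes it was no longer called. Scg5, the gene of the chaperone 7B2 that Pcsk2 needs to mature, had log2 ratios of -1.05 and -0.94. Its mean of -0.996 fell just short of the rule. Ctsl, the cathepsin L gene, had 0.54 and Pcsk1, the other granule convertase gene, -0.505 (-0.09 by its other probe). The median of the 8 was -0.42, and with the background offset kept no gene that makes a peptide among the 10 had a mean ratio that low. With no offset Vip had -0.52 and Grp -0.49, and by the scanner software they had -0.59 and -0.52. Grp also had -0.45 on the array with Cy3 for the mutant. The others of the 10 stayed above -0.42 under every alternative. The median of the 8 was not compared with them under these alternatives.

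**Figure D4:**
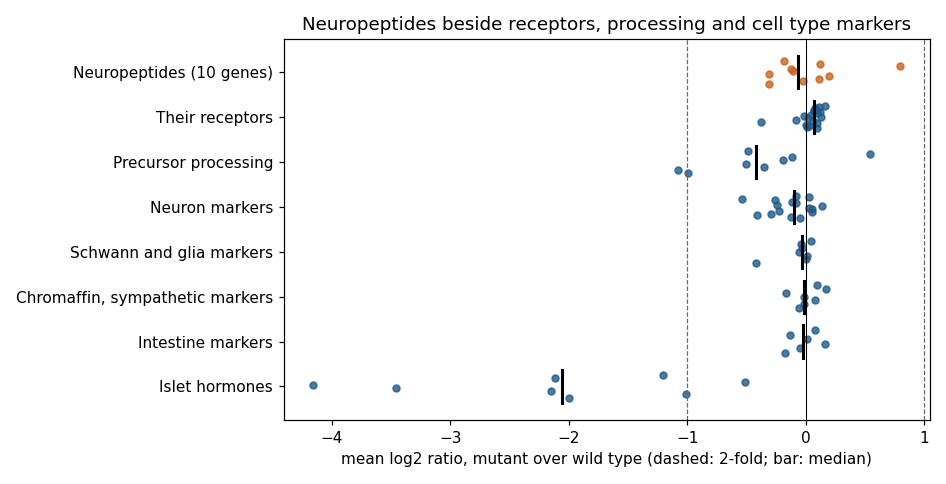
Mean log2 ratio of mutant over wild type for every detected gene of 8 lists, 1 point per gene and a black bar at the median; dashed lines mark 2-fold. The 10 neuropeptide genes (orange, median -0.07) lie near the receptor genes (0.06) and nerve marker genes (-0.10 for neurons), away from the islet hormones (-2.06).

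Nerve and glia markers were measured because nerve fibres carry these peptides, although most neuronal cell bodies lie outside the organ. Of 16 neuron markers all 16 were detected, 0 passed the rule, and 11 were below 0 on both arrays, with a median of -0.10. Elavl4, a neuronal RNA binding protein gene that islets also express, had -0.54 (-0.15 by its other probe), and Stmn2, a microtubule regulator of neurons, had -0.41. Snap25, of the vesicle fusion machinery, had -0.29 (0.02 and -0.24 by other probes) and Gap43, a protein of growing axons, -0.26. Their summed raw signal was 5752 and 5375 in the mutant pool and 7601 and 6168.5 in the wild-type pool.

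Schwann cell and glia markers had a median of -0.04 over 7 detected genes, with S100b, a calcium binding protein of glia, at -0.42. Their summed raw signal was 3056 and 2825 in the mutant pool and 3965 and 3151 in the wild-type pool. Markers of chromaffin and sympathetic cells had a median of -0.02 over 7 genes, with Pnmt, the gene of the enzyme that makes adrenaline, at -0.17 and Ddc, the aromatic amino acid decarboxylase gene, at 0.17 (0.11 by its other probe). Vip, Grp and Adcyap1 were lower together with several of the neuron markers, and what part nerve content has in their ratios was not tested. Npy and Cartpt, also carried by nerves, were slightly above 0 in the same pools.

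The way the spots were processed changed the size of the dim ratios more than their direction. For 9 of the 10 genes the sign was the same under every alternative tried, though the filters on dim probes could not change it. The exception was Tac1, whose ratio ran from -0.055 to 0.01, above 0 with median centring. Cck ran from 0.77 to 0.96 over the alternatives that kept its RefSeq probe alone, and Vip from -0.59 to -0.30. Grp ran from -0.52 to -0.175.

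**Figure D5:**
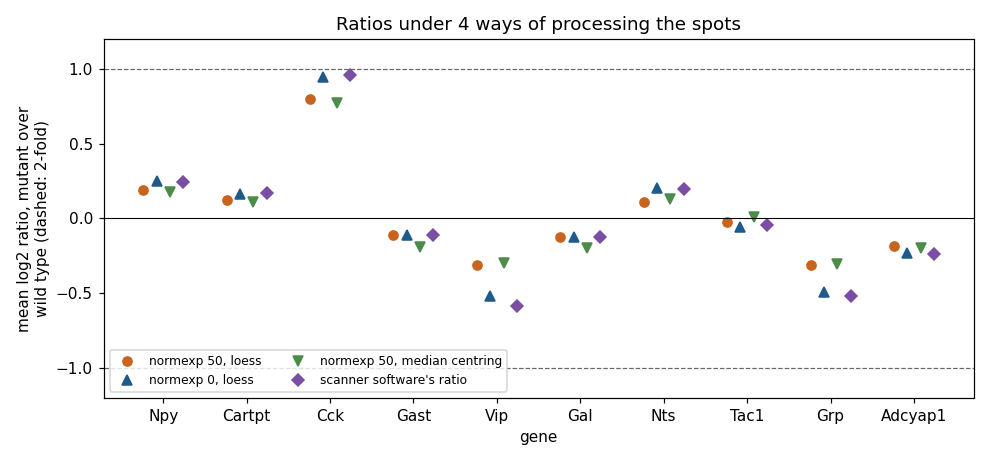
Mean log2 ratio of mutant over wild type for the 10 genes under 4 ways of processing the same spots: background offset of 50 with loess, offset of 0 with loess, offset of 50 with median centring, and the scanner software's own ratio; dashed lines mark 2-fold. Cck stays highest, between 0.77 and 0.96, and Vip and Grp move further from 0 with no offset and by the software, without reaching 2-fold.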

How the data were processed

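Both arrays were Agilent whole mouse genome arrays. Per the labels, cRNA labelled from 500 ng of total RNA was hybridised, 750 ng a dye, for 17 hours. Deposited files hold raw mean and background intensity values, processed intensity values that the scanner software background-subtracted and dye-normalised per the file headers, and their deposited log10 ratio of Cy5 over Cy3. The labels name Feature Extraction 7.5, the file headers 8.5.1.1. The deposited series table holds log2 ratios, equal to the software's mutant over wild type within 0.002 for 99.99% and 99.98% of probes. Its scale and direction come from that comparison.

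Raw intensities were corrected with normexp (offset 50) and normalised by loess within each array in limma 3.58.1 (R 4.3.3), with control spots at weight 0, and 15 and 53 outlier spots left out. The steps were tested on simulated data, with changes planted only in spots brighter than those of most of the 10 genes. Recovery of changes in dim genes was thus not tested. Spots of a probe were averaged, both arrays turned to mutant over wild type, and a gene read from its brightest unsaturated probe, named through RefSeq GRCm38.p6. Of 41174 probes, 17687 stayed without a gene name. Technical SD was taken from the difference between arrays in 10 brightness classes, over genes not past the rule of size. Percentages lower or higher are shares of detected genes. Named genes were the 10 neuropeptides and, in other lists, those past the rule of size or, with fewer than 3, up to 4 of the largest ratios, plus exceptions named as such. Members and lists were chosen with earlier results of these data known. Alternatives were the software's ratios, the series table, an offset of 0, median centring, the median over probes, each array alone, stricter and no filters on dim probes, and, added later, a negative control filter and the 1.5-fold rule.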

Additional observations from a re-analysis of the deposited data

How the results depend on the processing

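The counts of neuropeptide genes past the rule of size (0 higher, 0 lower) and of receptors (0) were the same under all 10 alternatives. So was that of neuropeptide genes past 1.5-fold on each array (1 higher, 0 lower). For the neuropeptide genes several alternatives could not change these counts. Their probes were well above background and negative controls in every channel, so the filters on dim probes left the values as they were. The series table repeats the software's ratios, and only Cartpt had more than 1 probe for the median over probes. The 1 higher gene, Cck, rests on its RefSeq probe. Averaged with the clone probe it stood at 0.448 log2, under 1.5-fold, and the brighter clone probe alone gave 0.10. The count of other peptide genes was 5 in all but 2 alternatives, with 4 by the median over probes and 4 on the array with Cy5 for the mutant. Over all detected genes, 25 were called lower and 38 higher, against 44 and 50 by the scanner software and 42 and 49 with an offset of 0. The median of the 10 genes, -0.07, was -0.08 by the scanner software and by the deposited series table (-0.077), -0.083 with an offset of 0 and -0.091 with median centring, and between -0.038 and -0.036 with either array alone. The count of processing genes, 1, was 2 with the scanner software's ratios, 2 with the deposited series table, 2 with an offset of 0 and 2 with median centring, and 0 with the median over probes, because the probes of Pcsk2 differ. The cause of the other moves was not tested. The number of arrays limits every value. Dim genes have little room to read lower: the lowest reading of Tac1, 98.5, stood not far above the 95th percentile of negative controls, 60.8 to 76.2.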
